A study of Mus musculus with 4 samples.

Results

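The genes described here encode the enzymes and transporters that build, sulfate and trim glycosaminoglycans, the long sugar chains of proteoglycans and of hyaluronan. They were chosen by name, as a list of 46 genes covering precursor supply, the linker, the chondroitin, heparan and hyaluronan chains, and sulfation. All 46 were found on the array by the gene name printed in the scanner files, with 59 of its 55681 non-control probes. Each of the 46 had at least 1 probe well above background on 2 or more arrays, so 46 of the 24041 genes tested are members, and 45 of them were above background on all 4 arrays. The exception was Has3, above background on 3 arrays.

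The cells were mouse primary osteoblasts grown in 10% serum and treated for 72 h, and each treatment was measured on 1 single-colour array. The untreated cells received neither protein, the LOXL2 cells 4 µg/ml of LOXL2, the BMP2 cells 200 ng/ml of BMP2, and another culture both proteins. Bone and cartilage form in response to the growth factor BMP2, and LOXL2 belongs to the secreted lysyl oxidases, which cross-link collagen. The labels call the cells without BMP2 pre-osteoblasts and those with it osteoblasts. They give no strain, age or tissue of origin and leave unstated whether the 4 cultures were prepared separately.

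Most glycosaminoglycans grow on a serine of a core protein. Xylosyl-, galactosyl- and glucuronyltransferases first build a short linker, and the next sugar added decides whether a chondroitin or a heparan chain follows. Sulfotransferases then decorate the chain in the Golgi from the activated sulfate PAPS, and an epimerase turns part of the glucuronate to iduronate. Hyaluronan has no core protein and no sulfate and is spun out at the plasma membrane by hyaluronan synthases. In the skeleton these chains hold water in cartilage and bind growth factors, BMPs among them.

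The array reads each gene through a probe of 60 bases. The first 30 bases are printed for the probes of the 4 members with a called change of at least 2-fold, and for Has2, the synthase that moved against Has1. Positions are on mm9, as in the files.
Extl1 (chr4:133912503-133912562, minus strand): tgaatggagttaaagactacggataaaatg
Hyal1 (chr9:107481893-107481952, plus strand): aatagtcacatagtgaatcagagtttagga
Has2 (chr15:56497356-56497415, minus strand): ctagtgggaaacaaacacaccctgacaata
Chst7 (chrX:19674422-19674481, plus strand): catcagcagatgtctggacaaaaccatcaa
Has1 (chr17:17980413-17980472, minus strand): atttaagattcttcaatatggactgtattg

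The 5 probes lie on 5 different chromosomes. Levels of different probes cannot be set against each other, because probes bind with different strength. All levels below are scaled intensities, that is, spot intensities brought to a common 75th percentile on the 4 arrays.

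Upstream sequence is shown for the member with the largest rise, the member with the largest fall, and the other member that rose at least 2-fold. Each run is the 250 bases before the gene's start in RefSeq (GRCm38.p6), and capitals mark matches on either strand to TGTGGT (a RUNX core), GGCGCC (a GC-rich SMAD motif) or ACAAAG (a SOX core).
Extl1 (chr4:134372548-134372797, minus strand): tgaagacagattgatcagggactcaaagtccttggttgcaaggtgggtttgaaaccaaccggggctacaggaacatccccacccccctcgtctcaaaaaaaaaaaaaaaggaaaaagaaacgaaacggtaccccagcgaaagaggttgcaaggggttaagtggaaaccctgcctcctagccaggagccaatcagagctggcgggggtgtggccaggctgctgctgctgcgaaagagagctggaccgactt
Has1 (chr17:17855189-17855438, minus strand): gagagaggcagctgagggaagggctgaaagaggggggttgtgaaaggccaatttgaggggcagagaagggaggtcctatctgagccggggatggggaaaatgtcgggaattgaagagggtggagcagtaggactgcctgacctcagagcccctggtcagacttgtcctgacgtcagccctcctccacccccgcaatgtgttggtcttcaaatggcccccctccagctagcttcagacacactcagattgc
Hyal1 (chr9:107576700-107576949, plus strand): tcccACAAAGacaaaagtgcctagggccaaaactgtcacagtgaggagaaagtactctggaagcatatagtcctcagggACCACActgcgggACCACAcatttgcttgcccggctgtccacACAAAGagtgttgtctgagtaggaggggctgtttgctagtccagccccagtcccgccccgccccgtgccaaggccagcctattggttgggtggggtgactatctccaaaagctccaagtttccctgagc

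Hyal1 held both the RUNX and the SOX letters, and the runs of Extl1 and Has1 held none of the 3 motifs. The window of Chst7, the other member that fell at least 2-fold, is not shown and held none of them either. Over windows of 300 bases, 36 members matched the RefSeq table by symbol, with 45 start sites. The RUNX core was in 3 of these 45 windows, 6.67%, against 16.8% of all 32851 windows. The SOX core was in 2, 4.44%, against 18.7%, and the SMAD motif in 6, 13.3%, against 11.9%. A match is a description of letters and not a binding site.

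Genes of chain building, sulfation and hyaluronan synthesis were among those that changed with BMP2. The called genes of the linker and of the chondroitin and heparan chains all rose. The called falls lay among the genes of sulfation, desulfation and hyaluronan. Effects of BMP2 and LOXL2 were fitted together over the 4 arrays in limma, so a BMP2 change compares 2 arrays with the protein against 2 without it. At a Benjamini-Hochberg adjusted p under 0.05 over all genes, 10 members rose with BMP2, 6 fell and 30 were not called. Without the filter on dim probes none of the 46 was called (25 had an unadjusted p under 0.05), and 0 of all 35077 genes were. With normexp background correction 16 rose and 12 fell, where 37.8% of all genes were called. In the eBayes fit with trend and robust settings 21 rose and 13 fell, where 43.2% of all genes were called. The 16 members called in the main fit are 34.8% of 46. Over all genes tested 20.3% were called in it, 10.3% upward and 9.97% downward. Among the 15388 genes with a RefSeq symbol and above background on all 4 arrays the share was 21.8%. The members' median change was 0.13 on the log2 scale, against 0.02 over all genes, and their median absolute change was 0.35 against 0.20. Called changes reached 2-fold for 2 members upward, Extl1 and Hyal1, where 2.27% of all genes had one, and for 2 downward, Has1 and Chst7, where 3.01% did. With normexp correction Hyal1 (0.97) and Has1 (-0.99) lay just under 2-fold. Both arrays with BMP2 lay above, or both below, both arrays without it for 42 of 46 members and for 70.9% of all genes, so such a separation is common on these arrays. The p-values measure only the spread between these arrays, which rests on 1 residual degree of freedom per gene. That residual is the difference between the BMP2 changes without and with LOXL2. In limma it was moderated with a prior of 1.72 degrees of freedom estimated over all genes. Variation between replicate cultures was not measured.

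**Figure D1:**
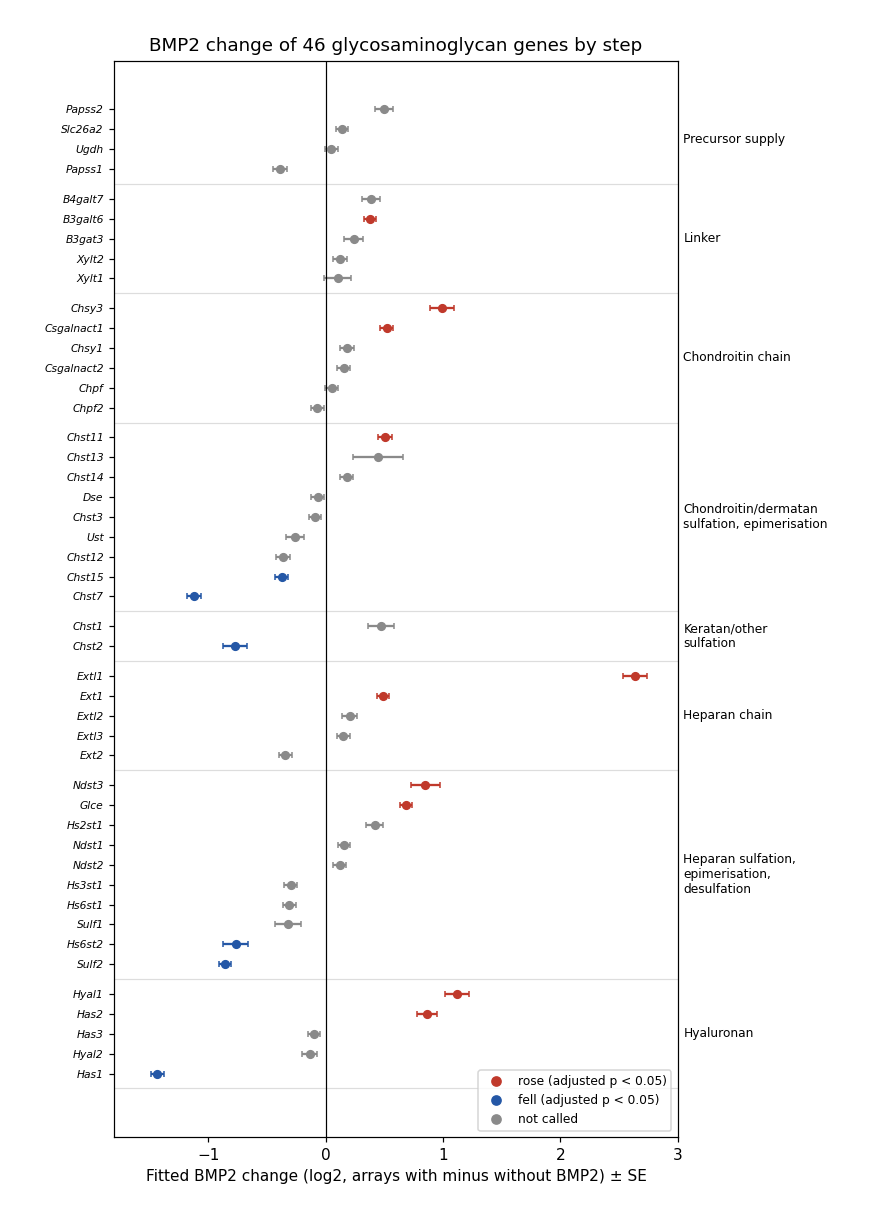
Fitted BMP2 change (log2, arrays with minus without BMP2) of the 46 genes, grouped by step, with bars of 1 standard error; red and blue mark genes that rose or fell at an adjusted p under 0.05. Extl1 stands alone at 2.64, and called rises and falls occur together in chondroitin and dermatan sulfation, heparan modification and hyaluronan.

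The arrays were alike in depth, with 60.4% to 62.2% of non-control spots well above background. The same arrays carried the markers of bone and cartilage. All 7 osteoblast markers were above background on every array, and 4 of them, Sp7, Alpl, Bglap and Ibsp, rose with BMP2. All 7 chondrocyte markers rose with BMP2, with a median change of 2.82. Their summed scaled intensity was 39728 and 46236 without BMP2 (untreated, LOXL2), and 178302 and 269898 with it (BMP2, both). Of these markers, Matn1 and Col10a1 were below background on the untreated array. All 11 leukocyte markers were measured and 4 fell, with a median change of -0.46. Their sum ran from 28553 (untreated) and 29713 (LOXL2) to 24281 (BMP2) and 23030 (both). Of 4 endothelial markers 2 fell, Cdh5 and Pecam1, with a sum of 21542 to 22963. None of the 4 adipocyte markers and none of the 3 measured skeletal muscle markers was called. The adipocyte marker Adipoq was below background on both arrays without BMP2 and above it on both with BMP2 (adjusted p = 0.0802). Each of these sums mostly follows its brightest probe. On the untreated array Col2a1 was at 27535, Itgam at 19090 and Kdr at 22560. Kdr had a BMP2 change of -0.03, so the endothelial sum did not show the falls of Cdh5 and Pecam1. The part of these cell types in the changes of the sugar enzymes was not tested, and in such bulk samples fewer cells of a type and less RNA per cell cannot be told apart.

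With BMP2 the RNA signals of 2 of the 3 hyaluronan synthases moved in opposite directions. Has1, a hyaluronan synthase, was at 234.0 on the untreated array and 192.8 with LOXL2, against 86.4 with BMP2 and 71.6 with both. Both arrays with BMP2 lay below both without it, and Has1 fell by 1.43 ± 0.05 (fitted log2 change ± SE, adjusted p = 0.0206), or 2.70-fold. Has2, the synthase on which the embryonic heart and limb depend, was at 568 untreated, 547 with LOXL2, 958 with BMP2 and 1077 with both. It was high on both arrays with BMP2, and it rose by 0.87 ± 0.09 (adjusted p = 0.0323). Relative to Has1, Has2 gained 2.19 in log2 units in the pair of arrays without LOXL2 and 2.41 in the pair with it. Has3, the remaining synthase, was dim, at 22.9, 17.0, 21.1 and 16.0 in the order untreated, LOXL2, BMP2 and both. Its BMP2 change was -0.10 with an adjusted p = 0.261.

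Of the 2 hyaluronidases on the list, Hyal1 rose. This lysosomal enzyme was at 378 untreated, 420 with LOXL2, 906 with BMP2 and 828 with both, a rise of 1.12 ± 0.10 (adjusted p = 0.0298). The levels with BMP2 were above those without it. The probe of Hyal2, which encodes a hyaluronidase anchored at the cell surface, lies 6884 bases from that of Hyal1 on chromosome 9. Hyal2 was at 5487, 5212, 4807 and 4925 in the same order, and its change of -0.14 had an adjusted p = 0.217. The neighbouring genes therefore gave different values on the same arrays, and a test of that difference was not made.

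In the heparan chain step Extl1 had the largest change of any member. Extl1, a glycosyltransferase related to the exostosins that add sugars to the heparan chain, was at 36.5 untreated, 53.1 with LOXL2, 205 with BMP2 and 365 with both. It was low on both arrays without BMP2 and rose by 2.64 ± 0.10 (adjusted p = 0.0206), or 6.21-fold. With normexp background correction, which raises dim values, the rise was 1.54 (adjusted p = 0.00125). Extl1 was also higher on each array with LOXL2, by 0.54 without BMP2 and by 0.83 with it, but the LOXL2 change of 0.69 was not called (adjusted p = 0.789).

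Ext1 and Ext2 encode the partners of the polymerase that lengthens heparan chains. Ext1 was at 2235 untreated, 2258 with LOXL2, 3104 with BMP2 and 3198 with both, and it rose by 0.49 ± 0.05 (adjusted p = 0.0352). Ext2 was at 271.8 on both arrays without BMP2, at 210.4 with BMP2 and at 218.6 with both. Its levels did not overlap between arrays with and without BMP2, yet the change of -0.34 ± 0.05 missed the threshold (adjusted p = 0.0514). Extl3, which starts the heparan chain, and Extl2, a transferase that acts on the linker, had changes of 0.15 and 0.21 and were not called.

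Genes that modify the heparan chain fell on both sides of 0, with 2 of 10 called up and 2 of 10 called down, against 10.3% and 9.97% of all genes. Glce, the epimerase that makes iduronate in heparan, was at 4280 untreated, 4360 with LOXL2, 6820 with BMP2 and 7094 with both, a rise of 0.69 ± 0.05 (adjusted p = 0.0267). Its levels with BMP2 were all above those without it and nearly alike within each pair. Ndst3, one of the enzymes that swap acetyl for sulfate on nitrogen, was dim throughout, at 32.8, 29.9, 67.3 and 47.3 in the order untreated, LOXL2, BMP2 and both. It rose by 0.85 ± 0.12 (adjusted p = 0.0471), and by 0.35 with normexp correction (adjusted p = 0.0163). With all kept probes of each gene averaged, its adjusted p was 0.0523. Ndst1 and Ndst2, the widely expressed enzymes of that family, had changes of 0.16 and 0.12 and were not called.

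The falls in this group concern sulfate at the 6-O position. Hs6st2, which adds it, was at 2387 untreated, 2526 with LOXL2, 1561 with BMP2 and 1336 with both, and it fell by 0.77 ± 0.11 (adjusted p = 0.0448). Sulf2, a secreted sulfatase that removes it outside the cell, was at 11040 untreated, 9824 with LOXL2, 6116 with BMP2 and 5396 with both. Sulf2 fell by 0.86 ± 0.05 (adjusted p = 0.0239), and both BMP2 arrays lay below both others. Thus a gene for adding and a gene for removing the same sulfate were each lower with BMP2. Their relatives were not called: Hs6st1 had a change of -0.31 (adjusted p = 0.0562) and Sulf1 of -0.32 (adjusted p = 0.147), and Sulf1 differed by -0.16 in the pair without LOXL2 and by -0.49 in the pair with it. Hs2st1, the 2-O-sulfotransferase that acts after Glce, was at 919, 857, 1300 and 1083 in the order above, a change of 0.42 (adjusted p = 0.0559). Hs3st1, a 3-O-sulfotransferase, had a change of -0.30 (adjusted p = 0.061).

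**Figure D2:**
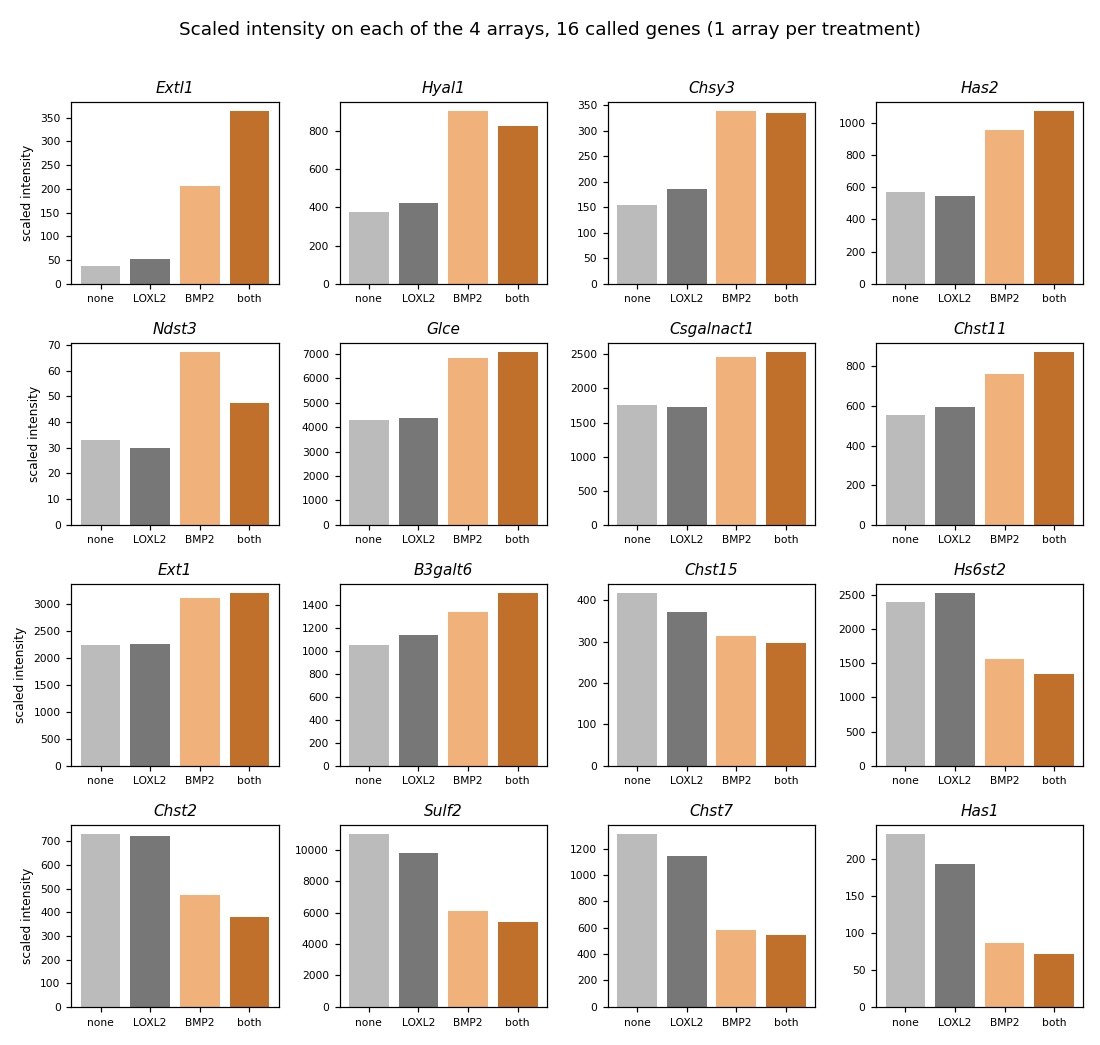
Scaled intensity of the 16 called genes on the 4 arrays (none, LOXL2, BMP2, both; 1 bar is 1 array, so there are no error bars), ordered from the largest rise to the largest fall. Both BMP2 bars lie on the same side of both bars without BMP2, as for 70.9% of all genes and as the choice of called genes nearly fixes; the levels run from Extl1 at 36.5 and 53.1 against 205 and 365 to Has1 at 234.0 and 192.8 against 86.4 and 71.6.

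Of the 6 chondroitin chain genes 2 were called, both upward, where 10.3% of all genes rose. Chsy3, a chondroitin synthase, was at 155 untreated, 186 with LOXL2, 339 with BMP2 and 335 with both, and it rose by 0.99 ± 0.10 (adjusted p = 0.0328). Csgalnact1, which adds the first galactosamine and so commits the linker to chondroitin, was at 1755 untreated, 1730 with LOXL2, 2458 with BMP2 and 2538 with both. Csgalnact1 rose by 0.52 ± 0.06 (adjusted p = 0.0351), with no overlap between arrays with and without BMP2. The other 4 genes of the step were not called. Csgalnact2, the second enzyme of that kind, had a change of 0.15, the synthase Chsy1 of 0.18, and the polymerising factors Chpf and Chpf2 of 0.05 and -0.07. The sign was not stable for Chpf, which was at -0.07 with quantile normalization, or for Chpf2, whose 3 probes gave 0.18, -0.04 and -0.07.

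Chondroitin sulfation held the largest fall outside hyaluronan. Chst7, a 6-O-sulfotransferase for chondroitin, was at 1312 untreated, 1147 with LOXL2, 582 with BMP2 and 546 with both. Both arrays with BMP2 were below both without it, and Chst7 fell by 1.12 ± 0.06 (adjusted p = 0.0221), or 2.18-fold. Chst11, the chondroitin 4-O-sulfotransferase whose loss causes severe chondrodysplasia in mice, went the other way, from 556 and 593 without BMP2 to 760 with BMP2 and 874 with both. Chst11 rose by 0.50 ± 0.06 (adjusted p = 0.0395). Relative to Chst7 it gained 1.62 in the pair without LOXL2 and 1.63 in the pair with it, on the log2 scale. These 2 genes had the highest and the lowest change of the 9 in their step, so the choice of genes sets this gap.

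The remaining sulfation genes changed less. Chst15, which adds a second sulfate to 4-sulfated chondroitin, was at 418 untreated, 372 with LOXL2, 312 with BMP2 and 295 with both. It fell by 0.38 ± 0.06 and was the called member nearest the threshold (adjusted p = 0.0499). With quantile normalization its adjusted p was 0.058, with median centring 0.0566, and with the values the authors tabulated 0.0511. Its second probe read 27.5 and 23.6 without BMP2 and was below background on both arrays with it. With both probes averaged, which takes in that unmeasured signal, the adjusted p was 0.11. Chst12, a second 4-O-sulfotransferase, had a change of -0.36 with an adjusted p = 0.051, just outside the threshold. Chst3, the other 6-O-sulfotransferase, had -0.09, and Chst14, the 4-O-sulfotransferase for dermatan, had 0.18. Ust, which sulfates uronate, had -0.26, and the dermatan epimerase Dse had -0.07. Chst13, a further 4-O-sulfotransferase, was dim, at 39.7, 34.2, 42.8 and 59.0. Its change was 0.45 ± 0.21 (adjusted p = 0.231), and it differed most among members between the pairs, by 0.11 without LOXL2 and 0.78 with it. Its second probe did not pass the filter on dim probes and had a mean difference of -0.31.

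Chst1 and Chst2 sulfate keratan and related sugars. Chst2, which acts on glucosamine, was at 732 untreated, 723 with LOXL2, 474 with BMP2 and 381 with both. It fell by 0.77 ± 0.10 (adjusted p = 0.0432), and its second probe had a mean difference of -0.49. Chst1, which acts on galactose, was at 2832, 2789, 3503 and 4335 in the same order. Its levels were higher with BMP2, and the change of 0.47 ± 0.11 was not called (adjusted p = 0.0856).

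Of the 5 linker genes 1 was called, a share near the 20.3% of all genes. B3galt6, which adds the second galactose of the linker, was at 1047 untreated, 1142 with LOXL2, 1342 with BMP2 and 1505 with both. B3galt6 rose by 0.38 ± 0.05 (adjusted p = 0.0456), and its adjusted p was 0.0521 with quantile normalization. B4galt7, which adds the first galactose, was at 5399, 5609, 6631 and 7847 in the same order, a change of 0.39 ± 0.08 (adjusted p = 0.0665). B3gat3, which closes the linker with glucuronate, had a change of 0.24, and the xylosyltransferases Xylt1 and Xylt2, which start it, had 0.10 and 0.12. A second probe of Xylt2 had a mean difference of -0.09. Xylt1 was the one member whose BMP2 difference changed sign between pairs, with -0.06 without LOXL2 and 0.27 with it.

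No gene of precursor supply was called, although the 2 synthases of PAPS missed the threshold narrowly and in opposite directions. Papss2, the form that cartilage depends on, was at 9525 untreated, 9620 with LOXL2, 12581 with BMP2 and 14533 with both, a change of 0.50 ± 0.08 (adjusted p = 0.0507). Papss1, its widely expressed relative, was at 3601, 3787, 2851 and 2798 in the same order, a change of -0.39 ± 0.06 (adjusted p = 0.0501). For each the arrays with and without BMP2 did not overlap. Such a separation held for 26 of the 30 uncalled members, these 2 among them, and for 70.9% of all genes. Papss2 passed the threshold with median centring (adjusted p = 0.0448), and Papss1 with quantile normalization (adjusted p = 0.0467). Slc26a2, the sulfate transporter of chondrocytes, was at 469, 517, 520 and 568, a change of 0.14 (adjusted p = 0.16). Ugdh, which makes UDP-glucuronate, had a change of 0.05, and of -0.03 with quantile normalization.

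Across the 30 members that were not called, the changes ran from -0.39 for Papss1 to 0.50 for Papss2, with 18 above 0 and 12 below. Of these 30, 6 had an adjusted p under 0.06, and 9 an unadjusted p under 0.05. Members with several probes gave the same sign at each kept probe except Chpf2, Xylt2 and Ndst1.

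The BMP2 differences were then read separately without and with LOXL2, in pairs of arrays that share none. They had the same sign for 45 of 46 members, where 20.6% of all genes changed sign. All 16 called members kept their sign, which the call nearly fixes, because the fit takes the difference between the pairs as its spread. In the pair without LOXL2, 4 members were at least 2-fold higher (Extl1, Hyal1, Chsy3 and Ndst3), where 2.97% of all genes were, and 2 were at least 2-fold lower (Has1 and Chst7), where 3.77% were. In the pair with LOXL2, Extl1 was at least 2-fold higher, where 2.86% of all genes were, and Has1 and Chst7 were again at least 2-fold lower, where 3.84% were. These 3 members, 6.52%, passed 2-fold in both pairs, where 4.8% of all genes did. No member differed by at least 1.2-fold in opposite directions in the pairs, where 1.88% of all genes did. Has1 was lower by nearly the same amount in each, with -1.44 and -1.43, and so was Sulf2, with -0.85 and -0.86. Ndst3 went from 1.04 to 0.66, Hyal1 from 1.26 to 0.98 and Chsy3 from 1.13 to 0.85, so these 3 were less than 2-fold higher in the presence of LOXL2. The median absolute difference between the pairs was 0.09 over the members and 0.11 over all genes. These differences have no test, because each treatment has 1 array.

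**Figure D3:**
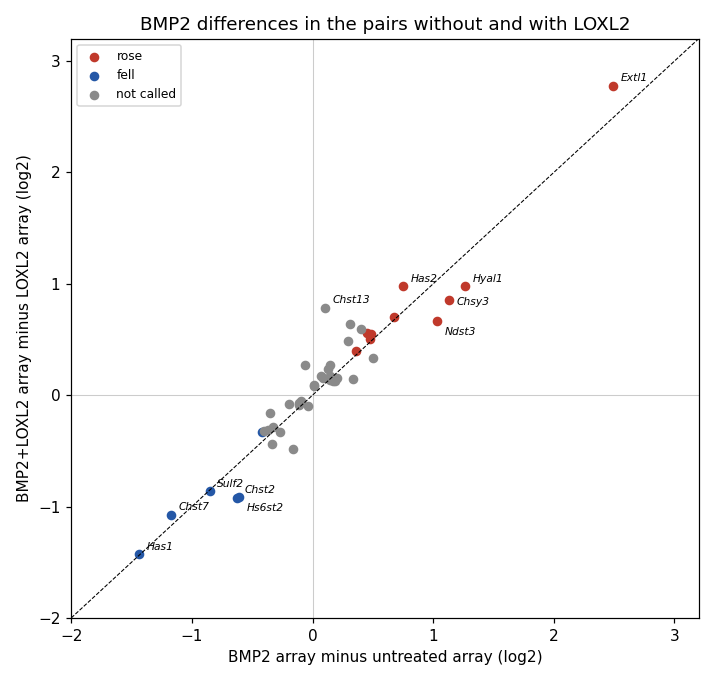
BMP2 difference of the 46 genes in the pair of arrays without LOXL2 (horizontal, log2) and in the pair with LOXL2 (vertical, log2); each point is 1 gene and the dashed line marks equal differences. The points follow the line from Has1 at -1.44 and -1.43 to Extl1 at 2.49 and 2.78, and Chst13 lies farthest from it, at 0.11 and 0.78.

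No change of a member with LOXL2 could be called from these 4 arrays. In limma 0 of 46 members, and 0% of all genes, changed with LOXL2 at an adjusted p under 0.05. The eBayes fit with trend and robust settings called 14 genes with LOXL2 and 0 members. At an unadjusted p under 0.05 there were 3 members, 6.52%, against 6.18% of all genes. These were Extl1 with a change of 0.69, Has1 with -0.27 and Has3 with -0.42, each with an adjusted p = 0.789. No member differed 2-fold with LOXL2, where 0.878% of all genes did without BMP2 and 1.12% with it. At 1.5-fold there was no member without BMP2, where 3.39% of all genes passed, and with BMP2 there was Extl1 alone, where 3.46% did. Has1 was lower with LOXL2 by 0.28 without BMP2 and by 0.27 with it. Has3 was lower by 0.43 and 0.40, although it was below background on 1 array.

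Other genes of the pathway were taken from a list of 47, of which 39 passed the filter on dim probes. With BMP2, 5 of the 39 rose, 7 fell and 27 were not called (10.3% and 9.97% of all genes rose and fell), with a median change of 0.14. The changes of at least 2-fold lay among enzymes that break chains down and among sulfotransferases. Cemip, a protein needed to depolymerise hyaluronan, was at 342 untreated, 339 with LOXL2, 81.3 with BMP2 and 78.0 with both, and it fell by 2.10 ± 0.05 (adjusted p = 0.0206). Hpse, the heparanase that cuts heparan chains, was at 1180, 1134, 2614 and 2864 in the same order, and it rose by 1.24 ± 0.08 (adjusted p = 0.0243).

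Among heparan 3-O-sulfotransferases, Hs3st3a1 was at 230.1, 219.8, 79.5 and 69.5 in that order and fell by 1.60 ± 0.07 (adjusted p = 0.0206). Hs3st6 rose by 1.04 ± 0.05 (adjusted p = 0.0219). Hs3st5 was below background on both arrays with BMP2 and at least 3.47-fold lower there (adjusted p = 0.0433). Chst5, a glucosamine 6-O-sulfotransferase, was likewise below background with BMP2 and at least 4.87-fold lower (adjusted p = 0.0206). In these folds the dim side on each array is the lowest signal above background or, if higher, the probe's own signal. Chst8, a sulfotransferase for galactosamine, was at 120.7, 109.1, 217.9 and 289.4 in the same order, and its change of 1.13 ± 0.18 missed the threshold (adjusted p = 0.0502). Pgm3, a supply gene for sugar nucleotides, fell by 0.69, and the linker phosphatase Pxylp1 rose by 0.55. Of the lysosomal enzymes, Hexa and Sgsh rose by 0.55 and 0.43, while Arsb and Ids fell by 0.72 and 0.42.

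Of 23 genes on a list of proteoglycan core proteins 8 rose, 7 fell and 8 were not called, where 10.3% of all genes rose and 9.97% fell. Their median change was -0.02. Those with a change of at least 2-fold were the cartilage proteoglycan Acan, which rose by 3.54 ± 0.20, the membrane chondroitin proteoglycan Cspg4, which rose by 1.24 ± 0.05, the small proteoglycan Epyc, which fell by 1.32 ± 0.06, and the heparan sulfate carrier Gpc3, which fell by 1.52 ± 0.05. In limma their adjusted p ran from 0.0206 to 0.0228. Acan rose more than any of the 46 enzymes and transporters did.

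**Figure D4:**
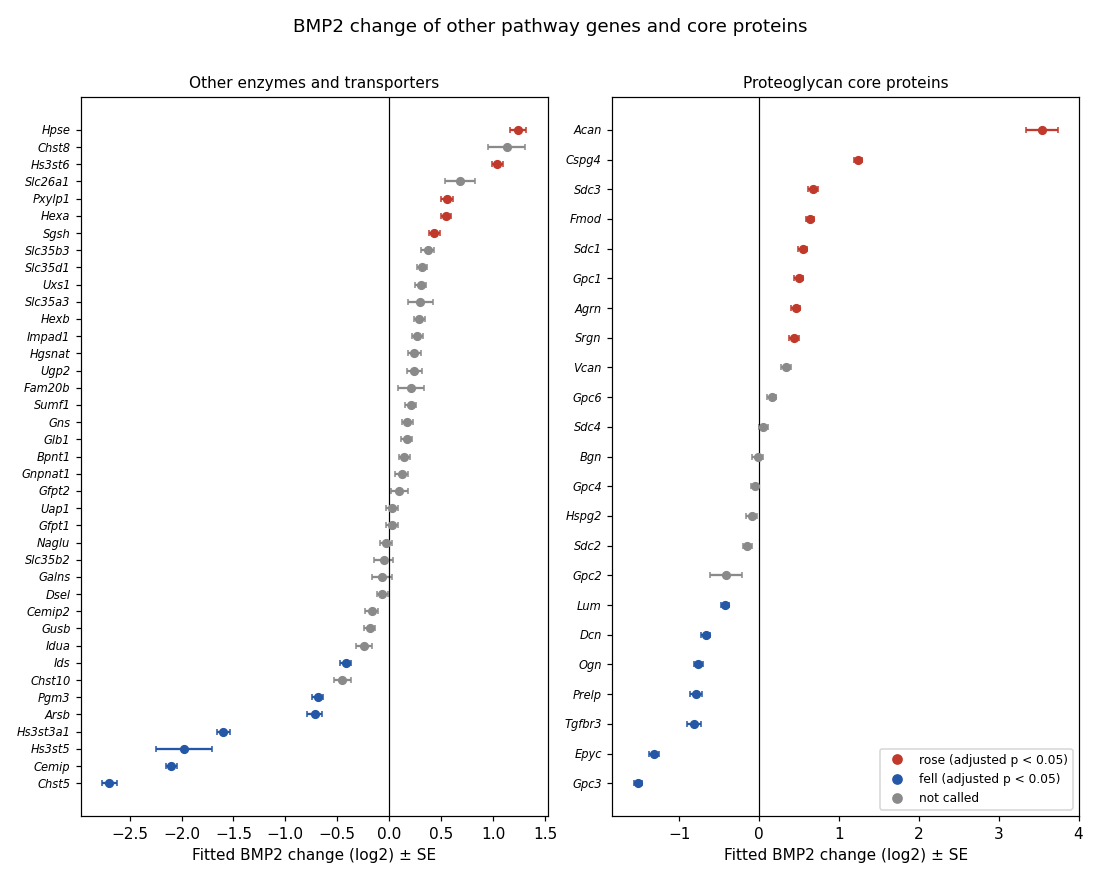
Fitted BMP2 change (log2) with bars of 1 standard error for 39 further enzymes and transporters (left) and 23 proteoglycan core proteins (right), each from largest to smallest; red and blue mark genes that rose or fell at an adjusted p under 0.05. Cemip lies at -2.10 and Acan at 3.54; the points of Chst5 and Hs3st5 are fitted from signals below background with BMP2, so their size is not a measured fold.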

How the data were processed

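The deposited scanner files hold an intensity per spot, which the authors extracted with Agilent Feature Extraction (version 10.7.3.1 in the submitters' processing notes). The headers of the files record background subtraction, detrending and surrogates for signals not above background. Log2 processed signals were taken, the 75th percentile of each array's non-control spots was subtracted, spots marked as outliers (109 to 144 per array) were left out, and spots of a probe were averaged. Scaled intensities use the geometric mean of the 75th percentiles, 726. Probes well above background on at least 2 arrays were kept, and the probe with the highest mean stood for a gene. Other genes were named through RefSeq (GRCm38.p6) for 26762 probes, and 28919 kept the name in the file.

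The additive model (BMP2, LOXL2) was fitted in limma 3.58.1 under R 4.3.3 with data.table (version 1.17.8). Tests were two-sided. The array number limits precision; over probes on 10 or more spots the median SD within an array was 0.0793 to 0.0831 (log2). By rule, all 4 levels are given for members with a called change of at least 2-fold, a 2-fold difference in a pair of arrays, or the largest change of their step; further genes of the pathway and core proteins are named where called with at least a 2-fold change. Levels of other members, and other called pathway genes, were added after their values were seen. One gene of the other pathway list is not reported here and was left out of that list's counts. Members and lists were chosen with earlier results of these data known. Alternatives were other normalization, background correction, filters, probe rules, eBayes settings and the deposited table of values, whose intensities equalled the authors' mean processed signal within 0.1% for 99.5% of probes.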

Additional observations from a re-analysis of the deposited data

How the results depend on the processing

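No paired analysis was possible because each treatment has 1 array. Of the 16 members called with BMP2, all lost the call without a filter on dim probes, where 0 of 35077 genes passed in limma (9259 at an unadjusted p under 0.05, 25 members among them, smallest adjusted p 0.09). Members that rose and fell then numbered 0 and 0, and other pathway genes 0 and 0. Normexp correction called 9086 genes, 37.8% of all, with 16 members up and 12 down and 15 other pathway genes up. The eBayes fit with trend and robust settings called 10389 genes, 43.2% of all. It had 21 members up and 13 down, and 18 other pathway genes up and 11 down. The filter on all 4 arrays gave 11 members down and 11 other pathway genes up, median centring 10 other pathway genes up, and averaging probes 3 up. Leaving out the unfiltered fit, 13 of the 16 called members were called under each of the other 7 settings. The exceptions were B3galt6, Chst15 and Ndst3. A limma fit of each kept probe on its own also left these genes uncalled (adjusted p 0.0603, 0.0648 and 0.0588 at the probe that stood for the gene). There Chst11 (0.0519), Hs6st2 (0.0563) and Chst2 (0.0547) missed the threshold too, although the second Chst2 probe had 0.048. The probes that stood for the other called members stayed under 0.05. Signs reversed for Ugdh (-0.0292) and Chpf (-0.0687) with quantile normalization and for Chpf2 (0.0236) with probes averaged. The members' median stayed between 0.10 and 0.18 over all settings, and the calls with LOXL2 stayed at 0 members. The cause of these shifts was not tested. Dim probes such as those of Ndst3, Chst13 and Has3 limit their values.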
